A study of Mus musculus with 57 samples.

Results

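The messages on tagged ribosomes of myeloid cells in the kidney of mice without surgery were compared with those of 3 other kidney cell lines, over all genes. All members are arrays: 3 of the myeloid line and 3 each of the nephron, interstitial and endothelial lines, chosen by their titles, so 12 of the 57 arrays of the series. Translating ribosome affinity purification (TRAP) uses an antibody against GFP to pull down ribosomes that carry an eGFP-tagged L10a protein, together with the messenger RNA on them. All 4 lines carried the conditional eGFP-L10a allele at Rosa26, driven by the CAGGS promoter, and 1 Cre allele, as compound heterozygotes. Lyz2-Cre placed the tag in the myeloid line, Six2-Cre in nephron epithelium, Foxd1-Cre in interstitial cells and Cdh5-Cre in endothelium. Recombination is permanent, so the tag stays in every descendant of a cell that once made Cre. The series describes Lyz2-Cre as labelling macrophages, monocytes and dendritic cells, and Foxd1 as also active in podocytes. All mice were males of a strain labelled as mixed C57BL/6 and 129, and none of the 12 had surgery or treatment. The wild-type background mice used further on carry the same strain label but are titled C57BL/6. The L10a background mice carry the L10a allele without Cre, and all background mice were 8 weeks old. The myeloid mice were 7 weeks old and those of the other 3 lines 6 weeks, so age and line cannot be told apart here. The arrays are labelled as biological replicates with no further detail, so what the spread between them covers is not known here. The p-values rest on a spread estimated over 45 arrays in 15 groups. These include arrays after sham surgery, after 28 min of ischemia and of total RNA, some from older mice. For comparisons with background it was estimated over all 57 arrays. A difference can therefore fail to pass even where the arrays compared do not overlap.

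Kidney macrophages and dendritic cells lie between the tubules, where they take up debris and immune complexes, sample filtered antigen and present peptides on MHC class II. Their lineages depend on the transcription factor PU.1 (gene Spi1), and that of macrophages also on the CSF1 receptor. Both cell types sense microbes and damaged cells through Toll-like receptors on the surface and in endosomes, most of which signal through the adaptor MyD88. Activating Fc receptors and many C-type lectins signal through ITAM motifs and the kinase Syk, whereas inhibitory receptors carry ITIM motifs that recruit phosphatases. In bulk RNA of this kind, more tagged cells of a type and more message per cell cannot be told apart.

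PU.1 binds a purine-rich ETS motif, and GAGGAAG is a common form of it. The letters GAGGAAG were searched on both strands (the other strand reads CTTCCTC) in the promoter windows of RefSeq (build GRCm38.p6). A window reaches from 250 bases before to 50 bases after a gene's start. Where a gene had several windows, such as Nlrp3 with 2, only the first listed was searched. The motif can overlap other ETS motifs. Of 15075 tested genes with a window, 1982 held it (13.1%). Of the 270 genes that were at least 2-fold higher in the myeloid line than in each of the other 3 lines, described below, 221 had a window and 66 of these held it (29.9%). Of the 36 genes at least 2-fold lower than in each line, 27 had a window and 3 held it (11.1%). Restricted to the bases before the start, the shares were 10.5% of all windows and 25.3% of those of the 270 genes. A match describes letters in a window and is neither a site nor a cause. The stretches below, all before the start, are from receptors, sensors, an integrin, an enzyme and a chemokine named in the results. They were chosen after the values were seen, to show the motif in genes of known myeloid function. Each is written 5′ to 3′ on the strand of its gene, with the motif in capitals.
Tlr9 (chr9:106222456-106222522, plus strand): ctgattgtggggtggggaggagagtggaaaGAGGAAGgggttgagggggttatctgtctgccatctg
Tlr13 (chrX:106143162-106143228, plus strand): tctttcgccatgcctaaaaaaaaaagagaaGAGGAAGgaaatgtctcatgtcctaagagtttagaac
Nlrp3 (chr11:59542620-59542685, plus strand): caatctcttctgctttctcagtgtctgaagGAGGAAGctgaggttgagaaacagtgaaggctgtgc
Fcgr1 (chr3:96293989-96294055, minus strand): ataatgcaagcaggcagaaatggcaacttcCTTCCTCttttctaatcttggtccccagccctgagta
Fcgr4 (chr1:171018873-171018925, plus strand): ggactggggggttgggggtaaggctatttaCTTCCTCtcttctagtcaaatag
Siglece (chr7:43660162-43660228, minus strand): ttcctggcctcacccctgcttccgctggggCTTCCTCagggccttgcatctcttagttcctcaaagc
P2ry13 (chr3:59210894-59210960, minus strand): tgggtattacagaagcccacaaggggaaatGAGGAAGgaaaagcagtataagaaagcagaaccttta
Csf3r (chr4:126024543-126024609, plus strand): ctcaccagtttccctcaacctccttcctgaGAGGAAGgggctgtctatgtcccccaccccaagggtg
Itgam (chr7:128062526-128062592, plus strand): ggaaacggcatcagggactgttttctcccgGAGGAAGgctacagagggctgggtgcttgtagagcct
Cbr2 (chr11:120732064-120732130, minus strand): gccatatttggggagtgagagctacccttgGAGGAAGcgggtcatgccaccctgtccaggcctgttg
Pf4 (chr5:90772396-90772434, plus strand): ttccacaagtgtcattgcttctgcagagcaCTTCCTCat
Among these 11 genes the motif read GAGGAAG in Tlr9, Tlr13, Nlrp3, P2ry13, Csf3r, Itgam and Cbr2. It read CTTCCTC, the opposite orientation, in Fcgr1, Fcgr4, Siglece and Pf4. Between the motif and the start lay 2 bases in Pf4, the chemokine platelet factor 4, and 105 bases in Tlr9, the endosomal sensor of unmethylated DNA.

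The 12 arrays had median intensities between 110.3 and 122.0. The 3 myeloid arrays correlated with each other at 0.994 to 0.997 over all tested genes. With endothelial arrays they correlated at 0.961 to 0.972, with interstitial arrays at 0.912 to 0.932 and with nephron arrays at 0.875 to 0.894. These correlations describe whole arrays that share probe effects and carry no test. The median SD between the 3 arrays of a line was 0.087 in myeloid, 0.088 in nephron, 0.092 in endothelial and 0.148 in interstitial arrays on the log2 scale. The third interstitial array was the lowest of its group for many macrophage genes named below, such as Lyz2 and Adgre1.

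By limma, 7264 of 19244 genes differed between the myeloid line and the mean of the other 3 lines at an adjusted p under 0.05. Of these 3243 were higher (16.9%) and 4021 lower (20.9%), and 910 were at least 2-fold higher (4.73%) against 480 at least 2-fold lower (2.49%). A log2 difference of 1 is a 2-fold change. The median difference over all tested genes was -0.04. Against single lines, 3957 genes were higher (20.6%) and 5163 lower (26.8%) than in nephron arrays, and 3800 higher (19.7%) and 3498 lower (18.2%) than in interstitial arrays. Against endothelial arrays 1840 were higher (9.56%) and 1951 lower (10.1%). The single-line comparisons share the myeloid arrays and are therefore given side by side. Higher than in each of the 3 lines were 1017 genes (5.28%), of which 270 were at least 2-fold higher in each (1.4%). Lower than in each were 377 genes (1.96%), or 582 in a fit of only the 39 TRAP arrays of the 4 lines, and 36 of the 377 were at least 2-fold lower in each (0.187%). All 3 myeloid arrays lay above all 9 others for 1613 of the tested genes (8.38%) and below them for 923 (4.8%), whether called or not. Counts in the text below name genes that passed limma's test at adjusted p under 0.05, errors are standard errors of the fit, and values by array are log2 intensities in the order of the array numbers. Where a list below had 0 calls in a direction against the mean of the lines, it also had 0 genes in that direction at an unadjusted p under 0.05, except 1 lower podocyte gene and 1 higher proximal tubule gene.

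The labelled cell type was checked with 26 markers of macrophages, monocytes and dendritic cells, of which 25 were tested. All 25 were higher than the mean of the other lines, with a median log2 difference of 3.11. Against nephron arrays 25 were higher (median 5.81), against interstitial arrays 23 (2.89) and against endothelial arrays 14 (0.66). Averaged over the markers, the log2 level was 12.04 to 12.11 in myeloid, 11.20 to 11.36 in endothelial, 8.81 to 9.78 in interstitial and 6.74 to 6.98 in nephron arrays. No myeloid array overlapped another line, and endothelial arrays came closest.

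Lyz2, the lysozyme whose locus drives Cre in the myeloid line, is a case of that closeness. Only the myeloid line carried Lyz2-Cre, and whether that allele alters the Lyz2 level was not tested. Lyz2 values were 12.75, 12.96 and 12.84 in myeloid arrays and 12.55, 12.62 and 12.59 in endothelial arrays. In interstitial arrays they were 11.28, 11.25 and 10.35 and in nephron arrays 6.31, 6.51 and 6.58. Myeloid arrays thus lay above all others, but the difference from endothelial arrays did not pass (0.26, adjusted p = 0.77). Nor did that of the complement gene C1qa (0.64, adjusted p = 0.057), of the NADPH oxidase subunit Cybb (0.48) or of the MHC class II chaperone Cd74 (0.19). Csf1r, the receptor for the macrophage growth factor CSF1, did differ. It stood at 12.68, 12.71 and 12.62 in myeloid arrays, 11.91, 12.01 and 11.96 in endothelial, 10.54, 10.41 and 9.70 in interstitial and 9.94, 9.73 and 10.00 in nephron arrays. The myeloid arrays did not overlap another line, and the difference from endothelial arrays was 0.71 ± 0.17 (adjusted p = 0.0014). Adgre1, the F4/80 antigen, was at 12.23, 12.24 and 12.17 in myeloid and at 11.39, 11.40 and 11.25 in endothelial arrays, again without overlap. Mertk, a receptor for dying cells, was the weakest marker, 0.38 above the mean of the other lines (adjusted p = 0.035) and 0.17 above interstitial arrays (adjusted p = 0.52).

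**Figure D1:**
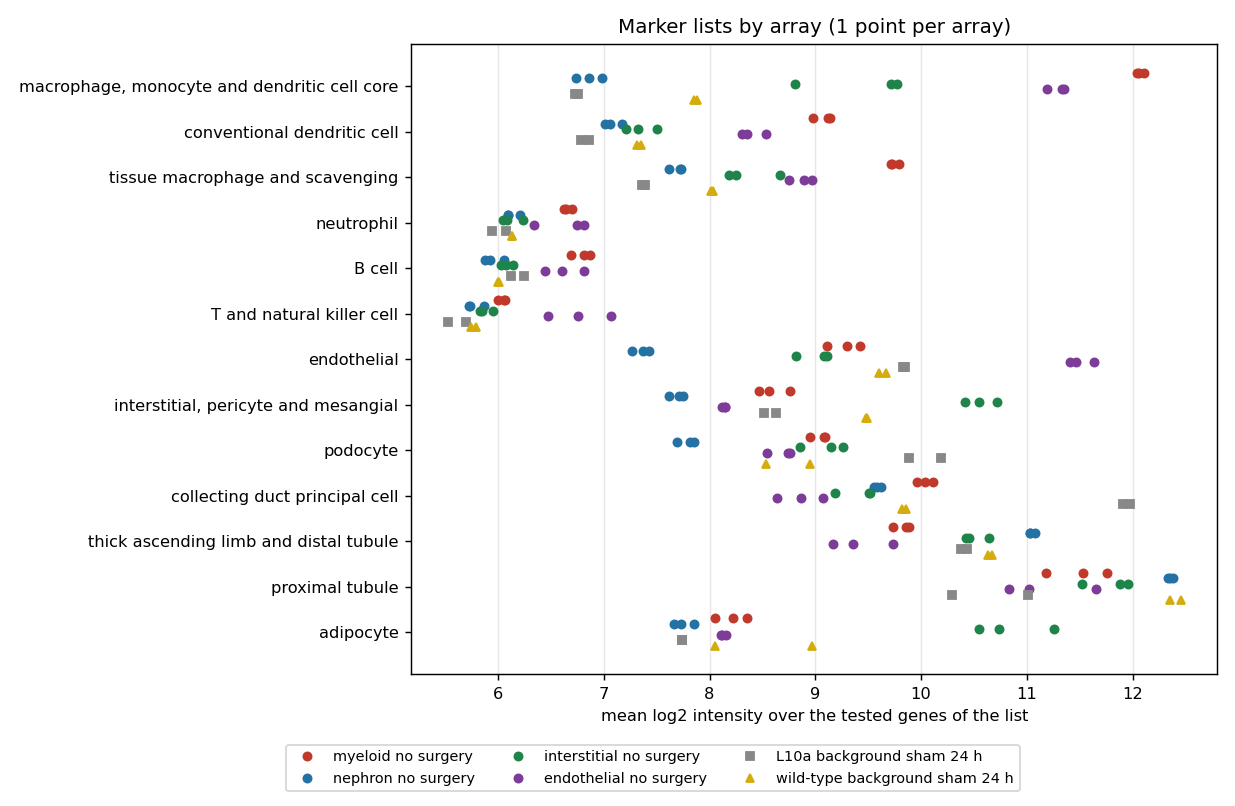
Mean log2 intensity of each of 13 marker lists in every array of the 4 lines without surgery, with background arrays after sham as squares (L10a allele without Cre) and triangles (wild type). Macrophage markers run from 12.04 to 12.11 in myeloid arrays, above endothelial arrays, while collecting duct principal cell markers in L10a background arrays (11.91 to 11.97) lie above every myeloid array.

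The genes that best set the myeloid line apart from every other line were ranked by their smallest difference over the 3 single-line comparisons. Cd209f, a C-type lectin of the DC-SIGN family, led them. It stood at 9.06, 9.09 and 9.12 in myeloid arrays, 5.74, 5.52 and 5.57 in nephron, 7.07, 5.57 and 5.65 in interstitial and 6.43, 6.36 and 5.75 in endothelial arrays. Its differences were 3.48, 2.99 and 2.91 from the 3 lines in that order, and 3.13 ± 0.29 from their mean (adjusted p = 9.2e-11). Ms4a4a, a membrane protein of the MS4A family, followed with 8.75, 10.00 and 9.72 in myeloid arrays and at most 7.09 in the highest of the 9 others. Lyz1, the second lysozyme gene, was at 11.49, 12.01 and 11.75 in myeloid and at 9.25, 9.19 and 8.92 in endothelial arrays. Lyz1 and Lyz2 are near copies, as are the members of the Ms4a, Clec4a and Cd209 families, and whether their probe sets share signal was not tested.

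Receptors of tissue macrophages and dendritic cells made up much of the rest of the first 12. Cd163, the scavenger receptor for haemoglobin bound to haptoglobin, was at 8.81, 9.12 and 8.92 in myeloid arrays, 5.69, 5.64 and 5.79 in nephron, 6.34, 5.46 and 5.94 in interstitial and 6.42, 6.24 and 6.47 in endothelial arrays. Its smallest single-line difference was 2.57. Folr2, a folate receptor of resident macrophages, was at 9.43, 9.56 and 9.58 in myeloid arrays, and the nearest other array was the first interstitial one at 8.04. Siglec1, the sialic acid receptor sialoadhesin, was at 10.28, 10.50 and 10.53 in myeloid and at 8.51, 8.47 and 8.18 in endothelial arrays (3.25 ± 0.11 from the mean of the lines, adjusted p = 5.8e-22). Cd209a, a lectin of dendritic cells, was at 11.26, 11.35 and 11.15 in myeloid arrays and reached 9.70 in the second endothelial array. Clec10a, which binds galactose-type sugars, was at 9.68, 10.01 and 9.71 in myeloid and at 7.57, 7.99 and 7.51 in endothelial arrays. For each of these 5 receptors the 3 myeloid arrays lay above all 9 others. The first 12 also held Tlr8, Tlr7, Ccl12 and P2ry13, whose values are given with their groups.

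**Figure D2:**
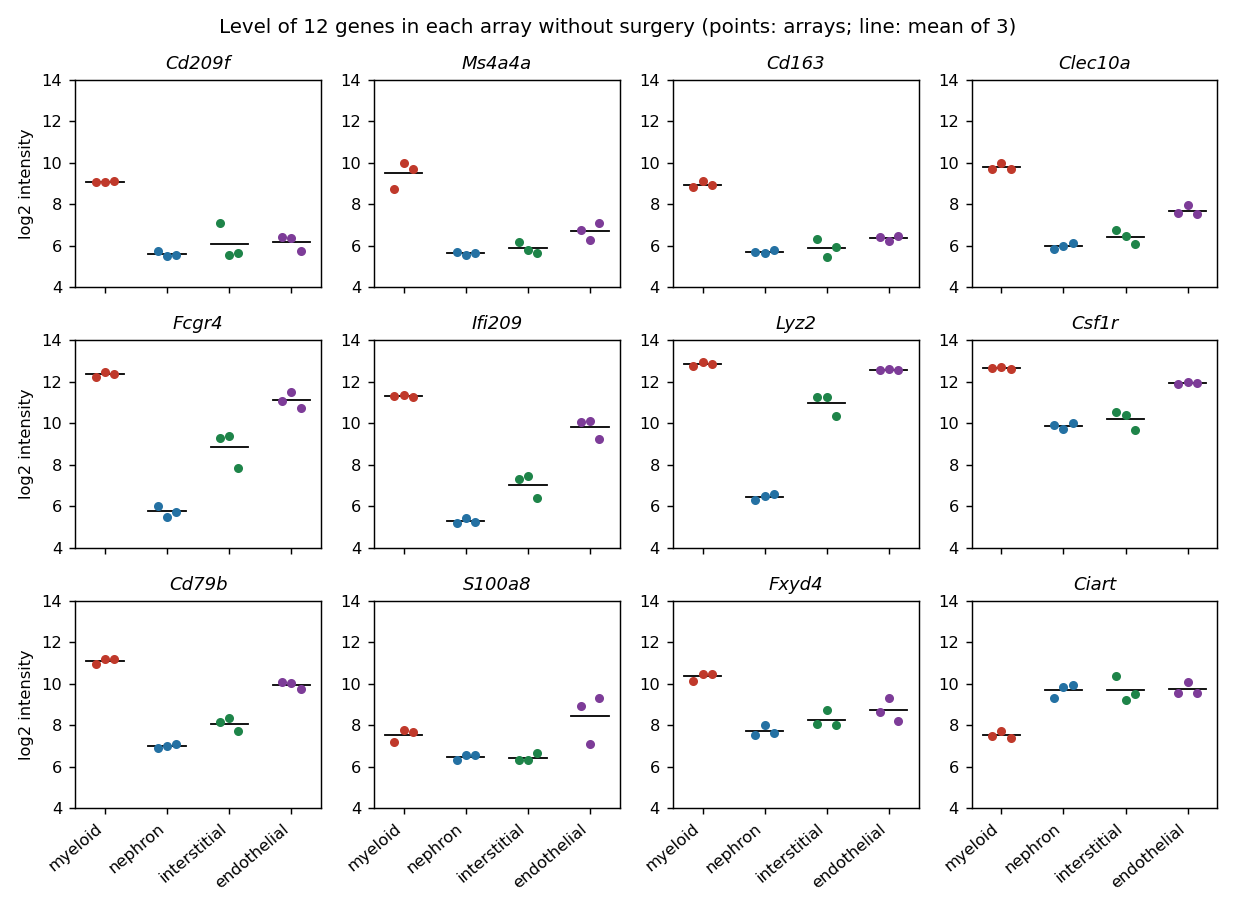
Log2 intensity of 12 genes in every array of the 4 lines without surgery. Points are arrays and lines are means of 3. Cd209f, Cd163 and Clec10a separate the myeloid line from all others, Lyz2 and Csf1r lie close to their endothelial levels, S100a8 is lower than in 2 endothelial arrays, and Ciart is lowest in the myeloid line.

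Of 15 genes of tissue macrophages and scavenging, 10 were higher than the mean of the lines and 1, the bridging molecule Gas6 (-0.60), was lower. The median was 1.37, and 2.38, 1.12 and 0.90 against nephron, interstitial and endothelial arrays. Mrc1, the mannose receptor, was 3.54 ± 0.14 above the mean of the lines. Msr1, a scavenger receptor for modified lipoproteins, was 2.65 above it, and Cbr2, a carbonyl reductase, 2.26. Timd4, the phosphatidylserine receptor of embryo-derived macrophages, differed by 0.73 at low levels (6.52, 6.98 and 6.54 in myeloid arrays and at most 6.18 in the others). Vsig4 (0.31), Marco (-0.01) and the iron exporter Slc40a1 (0.26) did not pass.

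Conventional dendritic cell markers were higher in 11 of 13, with a median of 1.09, and 9 were higher than in each line. Xcr1, the chemokine receptor of cross-presenting dendritic cells, was at 9.90, 9.68 and 9.16 in myeloid arrays and at 8.83, 9.16 and 8.68 in endothelial arrays, so the ranges touched. Clec9a, a receptor for exposed actin filaments, was at 9.41, 9.49 and 9.22 in myeloid and 8.59, 8.93 and 8.14 in endothelial arrays, without overlap. Irf4, a factor of the other main dendritic subset, was 1.95 above the mean of the lines, and the growth factor receptor Flt3 1.84. Zbtb46, a factor of dendritic cells that endothelium also makes, was lower (-0.33, adjusted p = 0.0073), at 7.76, 7.82 and 7.68 in myeloid and 9.12, 8.88 and 8.62 in endothelial arrays. Ccl17, a chemokine made by dendritic cells, was named for its function after its values were seen. It was at 10.01, 10.82 and 10.66 in myeloid arrays and at most 9.18 elsewhere.

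Of 10 tested monocyte genes 4 were higher and 1 lower (median 0.09). The higher ones were F13a1, a subunit of clotting factor XIII (3.09), the CCL2 receptor Ccr2 (2.81), Treml4 (2.07) and the sialophorin Spn (1.81). Ccr2 was at 10.11, 10.58 and 10.24 in myeloid arrays and at 9.63, 9.75 and 9.07 in endothelial arrays. Nr4a1, the nuclear receptor needed by patrolling monocytes, did not differ from the mean of the lines beyond the error (-0.14) but was 1.79 below endothelial arrays (adjusted p = 7.3e-04). Chil3 (-0.07) and Plac8 (-0.27) did not pass.

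Neutrophil markers were called in 3 of 15, all higher: the G-CSF receptor Csf3r (2.34), the interleukin-1 decoy receptor Il1r2 (1.47) and the protease Mmp9 (0.71). This count is near the share of all genes that were higher (16.9%), and the list median was 0.14. The calprotectin subunit S100a8 was at 7.20, 7.75 and 7.70 in myeloid arrays and at 8.93, 7.11 and 9.31 in endothelial arrays. It lay between 6.31 and 6.66 in interstitial and nephron arrays, and its difference of 0.43 from the mean of the lines did not pass. The granule genes Elane (-0.10), Mpo (0.03) and Camp (-0.03) did not pass, nor did the surface marker Ly6g (-0.26).

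Myeloid transcription factors were higher in 12 of 18, lower in 2 and had a median of 1.14. Against single lines their medians were 1.85 (nephron), 1.17 (interstitial) and 0.72 (endothelial), and 10 were higher than in each line. Spi1, which encodes PU.1, was at 12.36, 12.55 and 12.53 in myeloid arrays, 11.87, 11.84 and 11.62 in endothelial, 9.89, 10.68 and 9.14 in interstitial and 7.27, 7.51 and 7.25 in nephron arrays. The groups did not overlap (2.81 above the mean of the lines). Spic, the PU.1 relative of iron-recycling macrophages, was at 8.08, 8.11 and 8.09 in myeloid arrays and reached 6.62 in endothelial arrays (2.32). The runt factors Runx1 (2.66) and Runx3 (2.48), Ikzf1 (2.40), the interferon regulatory factors Irf8 (1.97) and Irf5 (1.96) and Cebpa (1.55) were also higher. Nr1h3, the liver X receptor alpha of sterol handling, was lower by comparison with the mean of the lines (-1.51). It was at 8.44, 8.53 and 8.43 in myeloid arrays and 8.21, 8.18 and 8.52 in endothelial arrays, whose ranges overlapped. In nephron arrays it was at 10.83, 10.80 and 10.79 and in interstitial arrays at 11.06, 10.81 and 10.60. Cebpb (0.28), Klf4 (0.07) and Bcl6 (0.37) did not pass.

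Pathogen sensors were higher in 21 of 23 tested members and lower in 0, with a median of 2.32. Against nephron, interstitial and endothelial arrays the medians were 3.64, 2.52 and 0.89, and 15 members were higher than in each line. The endosomal receptors for nucleic acids had large differences. Tlr8, a sensor of RNA fragments, was at 11.17, 11.19 and 11.09 in myeloid, 5.43, 5.18 and 5.25 in nephron, 6.82, 6.29 and 5.38 in interstitial and 8.53, 8.41 and 8.84 in endothelial arrays. Its single-line differences were 5.86, 4.99 and 2.56 in the order nephron, interstitial and endothelial. Tlr7, the sensor of single-stranded RNA, was at 11.63, 11.75 and 11.65 in myeloid and 9.24, 9.55 and 10.02 in endothelial arrays, and at most 7.70 in the 6 others. By their difference from the mean of the lines these were the first and second of the named genes. Tlr13, which recognises bacterial ribosomal RNA, was at 11.59, 11.79 and 11.81 in myeloid arrays, 10.21, 10.53 and 10.30 in endothelial, 8.71, 8.77 and 7.49 in interstitial and 5.84, 6.29 and 6.03 in nephron arrays. Tlr9 was at 11.44, 11.51 and 11.51 in myeloid arrays and 10.28, 10.30 and 10.04 in endothelial arrays (2.92 ± 0.10 from the mean of the lines, adjusted p = 2.3e-21). Unc93b1, the chaperone that carries these receptors to endosomes, was 2.53 above the mean of the lines. In none of Tlr8, Tlr7, Tlr13 and Tlr9 did the myeloid arrays overlap another line.

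At the cell surface, Tlr1 (2.88) and Tlr6 (1.88), partners of Tlr2 in lipopeptide sensing, and Tlr2 itself (2.32) were higher. Tlr4, the lipopolysaccharide receptor, was 2.02 above the mean of the lines but did not pass against endothelial arrays (0.52, adjusted p = 0.08). Its co-receptor Cd14 was 2.90 above the mean of the lines and its partner Ly96 did not pass (0.59). In the cytosol, the inflammasome receptor Nlrp3 was at 10.07, 10.29 and 10.11 in myeloid arrays and at 8.26, 8.49 and 8.58 in endothelial arrays. The DNA sensor Aim2 (1.92) and the flagellin sensors Naip5 (2.18) and Nlrc4 (1.60) were higher too. Nod1 was higher than the mean of the lines (0.54) but 0.76 below endothelial arrays, and Nod2 (0.21) did not pass. Clec7a, the beta-glucan receptor Dectin-1, was at 10.19, 10.86 and 10.65 in myeloid arrays and at most 9.45 in the others.

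Fc receptors and ITAM or ITIM receptors were higher in 22 of 23 and lower in 0, with a median of 2.97. Their medians were 4.48, 3.18 and 1.02 against nephron, interstitial and endothelial arrays, and 18 were higher than in each line. Fcgr4, an activating receptor for IgG, was at 12.24, 12.46 and 12.37 in myeloid arrays, 11.10, 11.52 and 10.76 in endothelial, 9.29, 9.41 and 7.84 in interstitial and 6.02, 5.50 and 5.75 in nephron arrays. Fcgr1, the high-affinity IgG receptor, was at 11.13, 11.49 and 11.39 in myeloid and 9.74, 9.83 and 9.44 in endothelial arrays, also without overlap. Inhibitory receptors were among the higher members as well: Siglece was 3.44, Lilrb4a 3.06 and Pirb 2.42 above the mean of the lines. Trem2, a lipid receptor, was at 8.95, 8.87 and 8.93 in myeloid and 7.84, 7.98 and 7.88 in endothelial arrays. The adaptors Tyrobp (2.97) and Fcer1g (2.90) were higher than the mean of the lines but did not pass against endothelial arrays (0.60 and 0.40). Clec4e (0.12), which senses mycobacterial glycolipid, did not pass.

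Downstream of these receptors, all 18 tested haematopoietic kinases, phosphatases and adaptors were higher, with a median of 2.41, and 16 were higher than in each line. Syk was at 11.21, 10.98 and 10.79 in myeloid arrays, 9.59, 9.72 and 9.65 in endothelial, 7.72, 7.88 and 7.12 in interstitial and 6.85, 6.66 and 6.77 in nephron arrays. Btk, a kinase of B and myeloid cells, was at 9.94, 9.88 and 9.81 in myeloid and at 8.64, 8.70 and 8.63 in endothelial arrays. Neither gene overlapped another line. The exchange factor Vav1 (3.29), the leukocyte phosphatase Ptprc, also called CD45 (3.06), and the lipid phosphatase Inpp5d (2.94) were also among the higher genes. Grap, an adaptor, was higher than the mean of the lines (0.70) but 1.19 below endothelial arrays.

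Adhesion and movement genes were high too. Of 20 integrins and actin regulators 19 were higher and 1, Itgad (-0.64), was lower, with a median of 2.33. The second probe set of Itgad gave -0.01. The median was 0.57 against endothelial arrays, and 10 were higher than in each line. Itgam, the CD11b chain of complement receptor 3, was at 9.96, 9.60 and 9.49 in myeloid arrays and at 8.94, 8.03 and 8.50 in endothelial arrays (1.19 ± 0.25, adjusted p = 4.9e-04). Its partner chain Itgb2 was at 11.83, 11.51 and 11.47 in myeloid and 10.73, 10.73 and 10.47 in endothelial arrays. Itgax, the CD11c chain, did not pass against endothelial arrays (0.26), nor did the homing integrin Itgal (0.22).

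Receptors for chemokines and other attractants were higher in 15 of 16 and lower in 0 (median 2.77), and 11 were higher than in each line. Cx3cr1, the fractalkine receptor of mononuclear phagocytes, was at 11.94, 12.11 and 12.08 in myeloid arrays, 11.14, 11.10 and 10.54 in endothelial, 9.06, 8.93 and 8.30 in interstitial and 7.18, 7.04 and 7.05 in nephron arrays. P2ry13, an ADP receptor, was at 9.28, 9.90 and 9.65 in myeloid arrays and at most 7.86 in the others. The complement peptide receptors C5ar1 (3.05) and C5ar2 (2.74) and the platelet-activating factor receptor Ptafr (2.89) were higher. Cxcr4 (-0.01) and Cxcr3 (0.03) were near 0 against endothelial arrays. Gpr183, the oxysterol receptor, was in none of the lists and was named after its values were seen. It stood at 10.20, 10.46 and 10.32 in myeloid and 8.53, 8.70 and 8.36 in endothelial arrays.

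Chemokines and cytokines were higher in 18 of 25 and lower in 1, with a median of 1.34, and 14 were higher than in each line. Ccl12, a monocyte attractant, was at 9.13, 9.61 and 9.63 in myeloid arrays, 7.03, 7.78 and 7.35 in endothelial and 5.75 to 5.93 in the 6 other arrays. Pf4 was at 11.11, 11.49 and 11.32 in myeloid and 9.70, 9.94 and 9.61 in endothelial arrays. Il1b, the inflammasome product interleukin-1 beta, was at 10.75, 11.24 and 11.11 in myeloid and 10.29, 9.76 and 9.41 in endothelial arrays. All 3 genes were free of overlap. Tnf differed less (1.29), at 7.71, 8.05 and 7.88 in myeloid and 6.94, 7.26 and 6.81 in endothelial arrays. The neutrophil attractant Cxcl2 (0.80, adjusted p = 0.058), Il10 (0.03), Il6 (-0.06) and Cxcl1 (-0.22) did not pass. Csf1, the macrophage growth factor, was lower (-0.98), and 1.65 below endothelial arrays.

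All 12 tested MHC class II presentation genes were higher, with a median of 2.16, and 6 were higher than in each line. H2-Aa, the alpha chain of the I-A molecule, was at 13.19, 13.20 and 13.14 in myeloid arrays and 12.95, 13.02 and 12.93 in endothelial arrays, a difference of 0.21 that did not pass (adjusted p = 0.82). It was at 12.18, 12.38 and 11.48 in interstitial and 7.49, 9.14 and 7.82 in nephron arrays. Ciita, the master activator of this locus, was at 10.76, 10.34 and 10.26 in myeloid and 9.72, 9.96 and 8.94 in endothelial arrays (0.91, adjusted p = 0.0012). H2-Ob, a brake on peptide loading, was at 11.00, 10.77 and 10.53 in myeloid and 9.75, 10.03 and 9.31 in endothelial arrays. The costimulatory ligands Cd86 (3.06) and Cd83 (2.68) were higher. Cd80 was higher by 1.69, but its second probe set gave 0.21.

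Lysosomal and antigen processing genes were higher in 17 of 22 and lower in 1, the protease Ctsl (-0.65), with a median of 0.99. Ctsc, which activates granule proteases, was at 12.54, 12.70 and 12.64 in myeloid and 12.00, 11.87 and 11.81 in endothelial arrays. The thiol reductase Ifi30 (1.09), cathepsin H (Ctsh, 1.02) and cathepsin Z (Ctsz, 1.00) were higher than in each line. General lysosome genes differed little: Lamp1 (-0.01), Lamp2 (-0.02) and cathepsin D (Ctsd, 0.04) did not pass. Lgmn, an asparagine protease, was at 12.42, 12.43 and 12.36 in myeloid and 12.23, 12.24 and 12.19 in nephron arrays (0.18, adjusted p = 0.26).

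The phagocyte NADPH oxidase was higher in 6 of 7 genes. Ncf1, its cytosolic p47 subunit, was at 11.23, 11.36 and 11.38 in myeloid and 10.41, 10.44 and 10.56 in endothelial arrays, and Ncf4 was 2.73 above the mean of the lines. Cyba, the membrane partner shared with other oxidases, was at 12.56, 12.67 and 12.72 in myeloid and 12.71, 12.77 and 12.70 in nephron arrays, which overlapped. Nox4, the oxidase of tubule cells, was lower (-1.02). In lipid mediator synthesis 8 of 13 genes were higher and 0 lower. Alox5, the 5-lipoxygenase, was at 8.91, 9.09 and 8.92 in myeloid arrays, 7.42, 7.18 and 7.08 in endothelial, 6.85, 6.73 and 6.82 in interstitial and 6.25, 6.03 and 6.37 in nephron arrays. Its activating protein Alox5ap was at 12.05, 12.12 and 12.02 in myeloid and 10.84, 11.09 and 10.76 in endothelial arrays. Cysltr1, a receptor for the leukotrienes made by this pathway, was in none of the lists and was named after its values were seen. It stood at 10.86, 11.16 and 11.06 in myeloid and 9.64, 9.72 and 9.42 in endothelial arrays. The next enzymes, Lta4h (0.27) and Ltc4s (0.28), and the inducible cyclooxygenase Ptgs2 (-0.17) did not pass.

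Complement was divided. The 3 chains of C1q, the properdin gene Cfp (2.77) and Itgam were the 5 of 15 genes that were higher. Cd55 (-0.60), C7 (-0.77) and the protease C1ra (-0.96) were lower, and C2 (0.08), C4b (0.53), Cfb (-0.24) and the protease C1s1 (-0.36) were among the 7 that did not pass. These 3 lower genes of 15 are near the share of all genes (20.9%). Against nephron arrays 8 were higher and 2 lower (median 0.71), and against interstitial arrays 5 were higher and 5 lower (-0.26). Against endothelial arrays 5 were higher and 0 lower, also at an unadjusted p under 0.05 (median 0.41).

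All 14 tested interferon response genes were higher than the mean of the lines, with a median of 1.44. Against nephron and interstitial arrays the medians were 2.88 and 1.18, but against endothelial arrays the median was 0.12, with 4 higher and 2 lower. Mx1, an antiviral GTPase, was at 7.32, 7.87 and 7.78 in myeloid and 6.29, 6.26 and 6.39 in endothelial arrays. The oligoadenylate synthetases Oas2 (1.57) and Oas1a (0.68) and the nucleic acid sensor Zbp1 (0.47) were the other 3 above endothelial arrays. Rsad2, the antiviral enzyme viperin, was 1.75 below endothelial arrays, and Ifit1 0.89 below. Cell cycle genes had a similar layout: 14 of 15 were higher than the mean of the lines (median 0.81), but against endothelial arrays 0 were higher (1 at an unadjusted p under 0.05) and 1 was lower (median -0.05). Mki67, the proliferation antigen, was at 9.12, 8.91 and 9.13 in myeloid and 9.15, 8.88 and 8.87 in endothelial arrays, with 6.85 to 7.55 in the 6 others. Top2a, a topoisomerase of dividing cells, differed by 1.41 from the mean of the lines, but its second probe set gave 0.03.

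**Figure D3:**
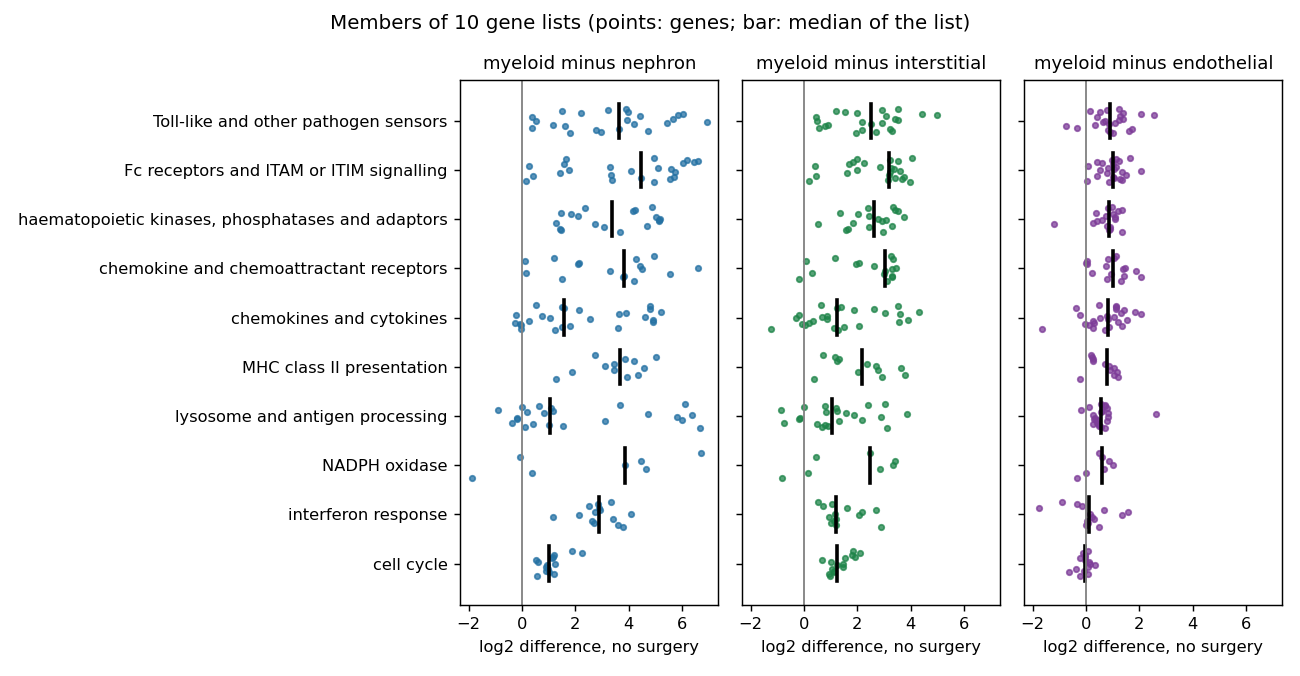
Log2 difference of myeloid arrays from nephron, interstitial and endothelial arrays for every tested member of 10 gene lists, with a bar at each median. Fc and ITAM receptors stay above 0 against all 3 lines (medians 4.48, 3.18 and 1.02), whereas interferon response genes centre near 0 against endothelial arrays (0.12).

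Markers of lymphocytes were mostly flat. Of 9 B cell genes 3 were higher: Cd79b, a signalling chain of the B cell receptor (2.77), Fcrla (1.18) and Cd22 (0.85). Cd79b was at 10.96, 11.19 and 11.19 in myeloid, 10.07, 10.02 and 9.76 in endothelial, 8.14, 8.34 and 7.71 in interstitial and 6.92, 7.02 and 7.10 in nephron arrays. Its partner chain Cd79a was at 5.85, 5.88 and 5.59 in myeloid arrays and 6.13, 6.39 and 5.63 in endothelial arrays. The other defining genes Ms4a1 (0.15), Pax5 (-0.15) and Blk (-0.03) did not pass either. Of 14 T and natural killer cell genes 1 was higher and 2 were lower, and against endothelial arrays 0 were higher and 10 lower (median -0.44). Cd3g of the T cell receptor was at 5.57, 5.77 and 5.64 in myeloid and 7.77, 8.63 and 7.57 in endothelial arrays. Cd4, the co-receptor of helper T cells, was named after its values were seen, at 10.14, 9.92 and 9.71 in myeloid and 8.31, 8.42 and 7.99 in endothelial arrays. None of 11 mast cell, basophil and eosinophil genes and none of 3 erythroid genes was called (medians -0.04 for both). Of 4 platelet genes Pf4 and Ppbp (1.67) were higher, while Itga2b (0.02) and Gp9 (0.10) did not pass.

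Markers of the other lines' cells were present in myeloid arrays as well. Endothelial markers were lower than in the endothelial line in 25 of 25 (median -2.28) but were 1.97 above nephron arrays at the median. Against the mean of the lines 3 of the 25 were higher and 5 lower (median 0.06), near the shares of all genes (16.9% and 20.9%). Kdr, the vascular growth factor receptor, was at 9.73, 9.96 and 10.20 in myeloid, 12.51, 12.31 and 12.31 in endothelial, 8.83, 9.05 and 9.44 in interstitial and 6.66, 7.01 and 7.04 in nephron arrays. Interstitial, pericyte and mesangial markers had a median of -2.32 against interstitial arrays and 0.76 against nephron arrays, and against the mean of the lines 3 of 22 were higher and 8 lower (median -0.26). Proximal tubule markers were lower than the mean of the lines in 9 of 28 and higher in 0 (median -0.29). Their mean level was 11.18 to 11.76 in myeloid and 12.34 to 12.38 in nephron arrays. The thick ascending limb list was lower in 7 of 14 and higher in 0, and the intercalated cell list lower in 4 of 12 and higher in 0. Against endothelial arrays 3 thick ascending limb genes and 3 intercalated cell genes were higher and 0 lower (medians 0.44 and 0.38). The 0 held at an unadjusted p under 0.05 too. Of the proximal tubule genes 4 were higher and 1 lower (median 0.32), beside 9.56% and 10.1% of all genes. Of 13 adipocyte genes 8 were lower and 1, the nuclear receptor Pparg (0.88), was higher. That list stood at a median of -2.85 against interstitial arrays. Pull-downs from mice without Cre held such messages too. In myeloid sham arrays endothelial markers were lower than in the L10a background in 19 of 25 (0 higher, also at an unadjusted p under 0.05, median -0.93) and lower than in the wild-type background in 17 (4 higher). Proximal tubule markers were lower than in the wild-type background in 28 of 28 (median -1.69), and against the L10a background 1 was lower and 2 were higher (median -0.12). Interstitial markers were lower in 5 of 22 and higher in 1 against the L10a background, and lower in 14 and higher in 2 against the wild-type background. Among all genes 20.8% were lower and 14.9% higher than the L10a background, and 24.8% lower and 28.3% higher than the wild-type background. The 5 lower interstitial markers are thus near the share of all genes. The part of this background in the lists above was not tested.

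Collecting duct principal cell and podocyte markers had higher genes and no lower ones against the mean of the lines. Of 15 principal cell genes 10 were higher than the mean of the lines and 0 lower (median 0.76). Against nephron, interstitial and endothelial arrays the medians were 0.29, 0.52 and 1.14, and 6 were higher than in each line. Fxyd4, a subunit that tunes the sodium pump, was at 10.16, 10.46 and 10.50 in myeloid, 7.55, 8.02 and 7.63 in nephron, 8.07, 8.73 and 8.00 in interstitial and 8.63, 9.34 and 8.19 in endothelial arrays. Elf5, an epithelial ETS factor, was at 8.34, 8.53 and 8.66 in myeloid arrays and reached 7.17 in the others. Slc14a2, the urea transporter of the inner medulla, was outside the lists, and was at 10.32, 10.26 and 10.26 in myeloid arrays and at most 9.24 in the others.

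These genes were measured at higher levels without any Cre. After sham surgery, background arrays of mice with the L10a allele but no Cre stood at 11.84 and 11.97 for Fxyd4, 10.98 and 10.97 for Elf5 and 11.92 and 11.70 for Slc14a2. The labels describe this background as coming from podocytes and some collecting duct cells, and give the mice both as homozygous and as heterozygous for the allele. Myeloid sham arrays were lower than these for 14 of 15 principal cell genes (median -1.62) and 10 of 12 podocyte genes (median -1.36). Against the wild-type background 7 principal cell genes were higher and 3 lower (median 0.44), and 5 podocyte genes were higher and 2 lower (median 0.25). Among all genes 28.3% were higher and 24.8% lower than that background. Podocyte markers were higher than the mean of the lines in 6 of 12 without surgery, among them Clic3 (1.42) and Wt1 (0.87). Nphs1, the slit diaphragm protein nephrin, was at 8.00, 7.89 and 7.76 in myeloid and 7.06 to 7.61 in the 9 others, with 8.92 and 9.26 in L10a background arrays. Its second probe set gave -0.20 in place of 0.63. No background array without surgery was analysed here, and the part of the background in these differences was not tested.

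Over all genes, the myeloid sham arrays were compared with each background, 3 arrays against 2, in a fit of 57 arrays (19302 genes). Against the L10a background 2878 genes were higher (14.9%) and 4006 lower (20.8%), and against wild-type mice 5470 were higher (28.3%) and 4795 lower (24.8%). Background mice were 8 weeks old and the wild-type ones are titled C57BL/6, so age, and for wild type possibly strain, cannot be told apart from group. Of the 3243 genes higher in the myeloid line without surgery, 1940 (59.8%) were above the L10a background and 226 below it. Of the 270 genes at least 2-fold higher than in each line, 255 (94.4%) were above it and 10 were below: Fxyd4, Elf5, Slc14a2, Mcoln3, Muc20, Aqp2, Corin, Aqp4, Myl7 and Anxa9. Another 5 were not called either way, namely Strip2, Cdk14, St6gal1, Ptpro and Blnk. St6gal1, a sialyltransferase, was at 10.49, 10.57 and 10.40 in myeloid arrays without surgery and at 10.50 and 10.49 in L10a background arrays. Against wild-type background 266 of the 270 (98.5%) were above and 0 below. The core macrophage markers stood at a median of 5.91 above the L10a background and 4.60 above the wild-type background.

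Genes lower in the myeloid line than in every other line were fewer. Klf12, a Krüppel-like repressor, was at 7.38, 7.49 and 7.39 in myeloid arrays, 9.89, 9.75 and 9.94 in nephron, 9.52, 9.30 and 9.31 in interstitial and 9.17, 9.05 and 9.29 in endothelial arrays (-2.05). Wwtr1, the Hippo pathway coactivator TAZ, was at 8.90, 9.01 and 9.06 in myeloid arrays and 10.41 to 11.29 in the 9 others (-1.80). Lrg1, a secreted glycoprotein of vessels and epithelium, was at 6.49, 6.64 and 6.64 in myeloid arrays and 7.84 to 10.82 in the others (-2.35). Socs2, a feedback inhibitor of growth hormone signalling, was lower by 2.13 (-2.13), but its second probe set gave only -0.64. For these 4 genes the myeloid arrays lay below all 9 others. The 36 genes at least 2-fold lower than in each line also include Nfib, Prox1, Vangl1, Bcar1, Egln3, Npr2 and Pdgfd. Against the L10a background 29 of the 36 were lower and 7 not called, and against wild-type background 22 were lower, 3 higher and 11 not called.

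Ciart, Bhlhe40, Klf9 and Per3 among those 36 genes belong to the circadian clock or its output. A list of 19 clock genes, of which 17 were tested, was therefore drawn up after these values were seen and is given as a description. It holds genes that prompted it, such as Ciart and Bhlhe40, so part of its counts and median was set by that choice. In the limma fit 11 of the 17 were lower than the mean of the lines and 1 was higher (median -0.98), and the same 11 were lower than in each line. The medians were -0.89, -1.24 and -0.87 against nephron, interstitial and endothelial arrays. The mean level of the list was 8.86 to 8.89 in myeloid arrays and 9.58 to 10.07 in the others. Ciart, a repressor of the clock activators, was at 7.48, 7.75 and 7.37 in myeloid, 9.33, 9.83 and 9.96 in nephron, 10.37, 9.23 and 9.49 in interstitial and 9.58, 10.07 and 9.54 in endothelial arrays (-2.18 ± 0.26, adjusted p = 2.6e-08). The period gene Per2 was at 8.10, 7.64 and 7.67 in myeloid arrays and 8.27 to 9.59 in the others. Klf9, which responds to glucocorticoid and to the clock, was at 10.37, 9.99 and 10.08 in myeloid and 11.38 to 12.00 in the others. Arntl, the activator whose level runs opposite to the period genes, was at 8.42, 8.38 and 8.50 in myeloid, 8.69, 8.23 and 8.06 in nephron, 6.62, 7.43 and 6.87 in interstitial and 8.58, 7.98 and 8.19 in endothelial arrays. It was 1.46 above interstitial arrays (adjusted p = 9e-06) and did not pass against nephron (0.11) or endothelial arrays (0.18). Clock (-0.42), Per1 (0.12) and Cry1 (-0.28) did not pass. The labels used here give no hour of tissue collection, so cell line and time of day cannot be told apart.

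**Figure D4:**
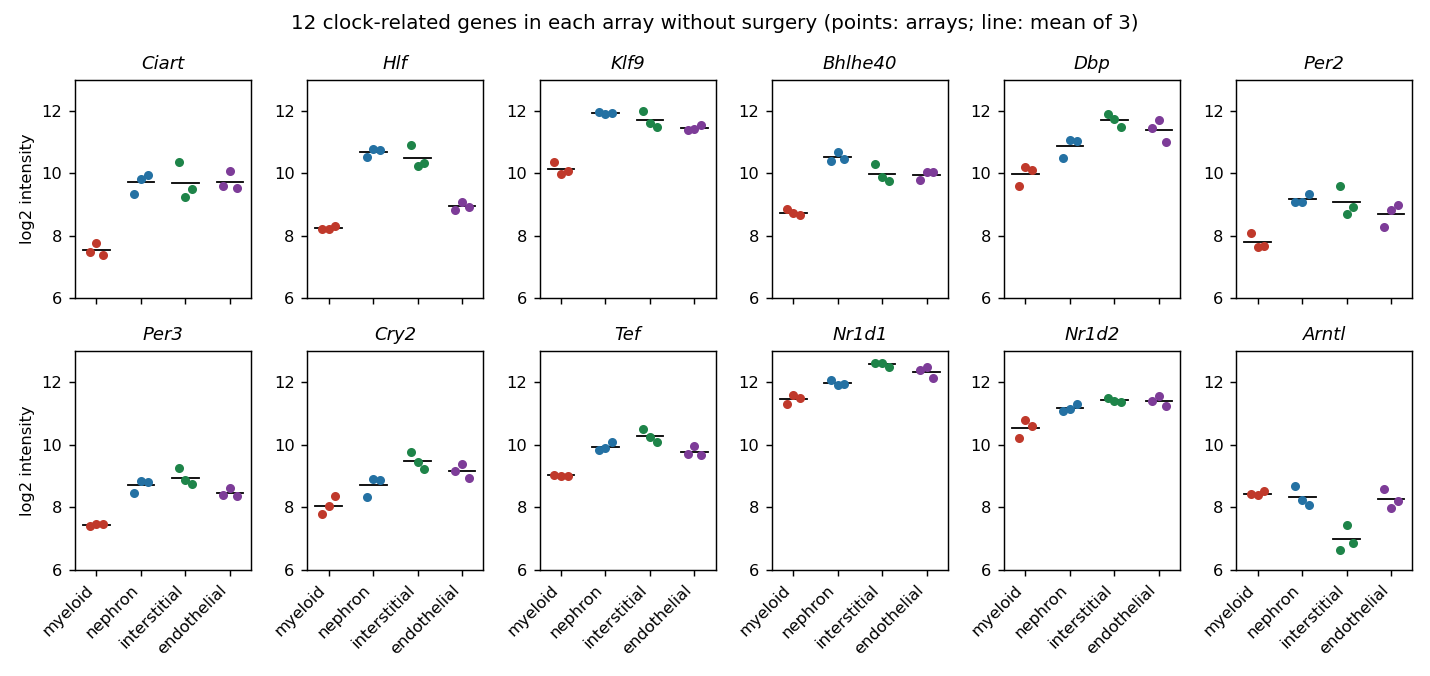
Log2 intensity of 12 circadian clock and output genes in every array of the 4 lines without surgery. Points are arrays and lines are means of 3. For Ciart, Hlf, Klf9, Bhlhe40 and Per3 the myeloid arrays are the lowest, while for Arntl they overlap nephron and endothelial arrays.

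Sham arrays taken 24 h after surgery repeated the comparison in other arrays, and share with it only the estimate of the spread. Myeloid sham mice were 7 weeks old, nephron sham mice 8 and the other lines 6. In sham 3945 genes were higher (20.5%) and 4218 lower (21.9%) than the mean of the other lines. Of the 3243 genes higher without surgery, 2887 were higher in sham (89% of these and 73.2% of the sham genes) and 12 were lower. Of the 4021 lower genes 2934 were lower in sham (73% and 69.6%) and 4 were higher. Of the 270 genes at least 2-fold higher than in each line 269 (99.6%) were higher in sham, and all 36 of the lower ones were lower. The exception was Zbtb16, the zinc finger factor PLZF, at 11.32, 11.68 and 11.63 in myeloid arrays without surgery and 10.87, 10.71 and 10.59 in myeloid sham arrays. Among the other lines without surgery Zbtb16 was at 11.81, 10.07 and 8.82 in interstitial arrays, which overlap the myeloid ones, and at 8.59 to 9.54 in the 6 nephron and endothelial arrays. Its difference was 2.19 without surgery and 0.53 in sham (adjusted p = 0.29). The core macrophage list had a median of 3.20 in sham beside 3.11 without surgery. The clock list had -0.85 in sham, with 11 lower and 2 higher. Against the L10a background 7 of the 17 clock genes were lower in myeloid sham arrays and 0 higher (1 at an unadjusted p under 0.05). Against the wild-type background 7 were lower and 4 higher (up to 1.73).

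The difference between the identity without surgery and that in sham was tested directly. Of 19244 genes 214 had a higher value without surgery (1.11%) and 44 a lower one (0.229%), with 2170 genes at an unadjusted p under 0.05. S100a8 was one of the 44: it stood at 10.37, 10.26 and 9.69 in myeloid sham arrays, all above the 3 myeloid arrays without surgery. In sham, 9 of 15 neutrophil genes were higher and 1 was lower (median 0.61), beside 3 of 15 higher without surgery. In the test of the difference 2 of the 15 passed, both with the higher value in sham, and the median was -0.09. Pla2g2d, a secreted phospholipase of dendritic cells that was named after its values were seen, went the other way. It stood at 9.34, 9.41 and 9.31 without surgery and 8.29, 7.59 and 7.96 in sham, a difference between the comparisons of 1.36 (adjusted p = 0.0025). Proximal tubule markers were lower than in the other lines in 27 of 28 in sham (median -1.25), beside 9 of 28 without surgery (median -0.29). In the test of the difference 6 of the 28 passed, all with the higher value without surgery (median 0.82), and the part of proximal tubule message in other differences was not tested.

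**Figure D5:**
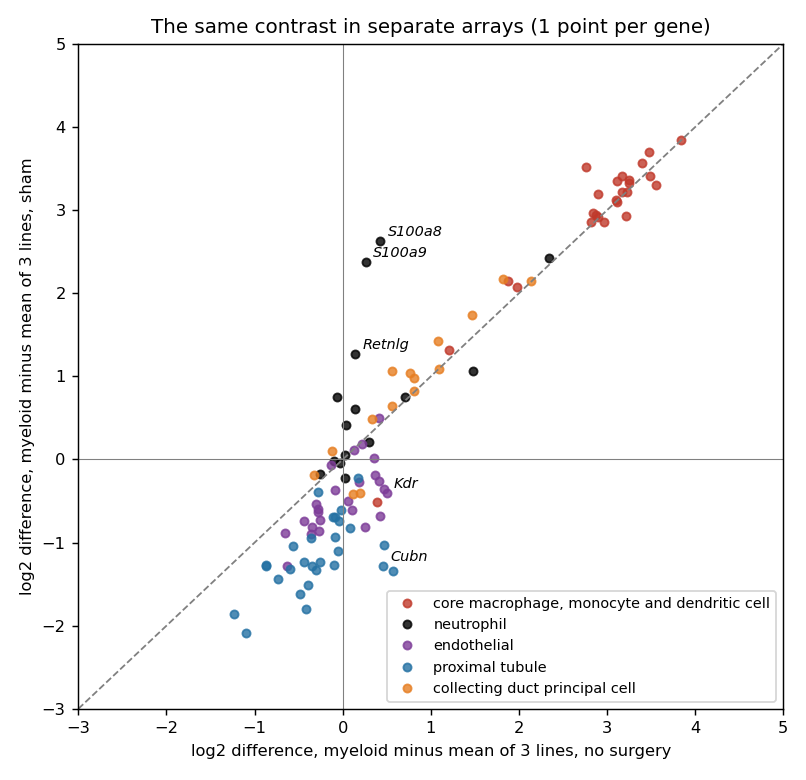
Log2 difference of the myeloid line from the mean of the other 3 lines in sham arrays (vertical) against that in arrays without surgery (horizontal) for the members of 5 gene lists, with a dashed line where both are equal. Most macrophage markers lie near the line, S100a8 (0.43 and 2.63) and S100a9 lie above it, and proximal tubule genes such as Cubn lie below it.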

How the data were processed

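Each value is an Affymetrix mouse array probe set intensity on a linear scale. Per the submitters' processing notes, the deposited intensities are RMA summaries made with Affymetrix Expression Console 1.3.1, and the log2 of each was taken here. RMA sets all arrays of a run to 1 distribution, so levels show composition and not amount of RNA. Median intensities were 43.92 to 53.3 in total RNA arrays and 105.75 to 128.35 in TRAP arrays, so these did not share 1 distribution. Per the labels, 200 ng of RNA entered each TRAP array. Intensities give no read depth, and 3 arrays per group limit the precision.

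The platform table gave 1 symbol for 21789 of 35556 probe sets, several for 1621 and none for 12146. Those with 1 symbol were kept (19938 genes, and 21698 probe sets matched RefSeq by gene identifier). Where probe sets shared a symbol (999 genes), that of highest mean level stood for the gene. The test covered genes whose log2 level exceeded 5 in 3 arrays or more.

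The functions lmFit, contrasts.fit and eBayes of limma 3.58.1 (R 4.3.3) fitted 1 mean per group to 45 arrays in 15 groups (19244 genes, 30 residual degrees of freedom with a prior of 3.06, and a residual SD of 0.153 at the median), which leaves out the 12 background arrays. Comparisons with background used all 57 arrays (19302 genes, 38 residual degrees of freedom, prior 3.18). The other 3 lines had equal weight in their mean. The Benjamini-Hochberg adjustment of p-values ran over all genes of a comparison. The script was tested on simulated data.

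The members, gene lists, tests and named gene rule were chosen with earlier results of these data known. Named genes were the 15 highest and 10 lowest among called genes with fully separated arrays, the 12 with the largest smallest difference from the 3 lines, up to 4 called members of each list and a panel of 28 genes, 147 in all. The text names some of these and, where a list is described, other members of it. Genes said to be named after their values were seen, the genes below the L10a background, the examples from the 36 lower genes and the clock list fall outside the rule. Replicate numbers are shared between groups. Deviations of same-numbered arrays from their group means correlated at -0.319 to 0.41 (median -0.001, 7 of 18 pairs over 0.1), so the numbers were not taken to pair arrays. Alternatives changed the arrays in the fit, scaling, filter, probe set rule, variance prior, reference lines and genes tested, added a replicate block and left out 1 array at a time. Python 3.11.15 with matplotlib 3.10.9 drew the figures.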

Additional observations from a re-analysis of the deposited data

Results flagged for a closer look

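Of the named genes, 4 differed between the identity without surgery and that in sham arrays by limma's test of the difference itself, adjusted over 19244 genes. The calprotectin subunit S100a8 had a difference between the comparisons of -2.20 (adjusted p = 0.004), with 0.43 without surgery and 2.63 in sham. The endothelial receptor Kdr differed by 0.91 (adjusted p = 0.0393), with 0.50 without surgery and -0.41 in sham, so the signs differed. The 0.50 itself depended on the reference, since it became -0.78 without the nephron line. The efferocytosis receptor Mertk differed by 0.90 (adjusted p = 0.0269), with 0.38 and -0.51, again of opposite sign. The antiviral GTPase Mx1 differed by 0.54 (adjusted p = 0.0362), with 1.85 and 1.31. The causes were not tested.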

How the results depend on the processing

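Age differed between the myeloid line and the others, the backgrounds were measured only after sham, and signal shared between near-identical genes was not tested. The count of genes lower than each line was 377, and 582 with only the 39 TRAP arrays of the 4 lines in the fit, whose spread leaves out total RNA. Testing only the 2877 genes above the L10a background gave 2098 calls (1993 higher and 105 lower), fewer by construction. Without the nephron line as reference, Kdr turned to -0.78, Flt1 to -0.71 and Itga8 to -0.61. Without the interstitial line, Pdgfrb turned to 1.01, Penk to 0.33, Lum to 0.24, Tagln to 0.49, Retn to 0.0193, Cidec to 0.27 and Adipoq to 0.19. Without the endothelial line, Cd3g turned to 0.12, Cd3e to 0.21, Esam to 0.37 and Nos3 to 0.46. After the turn Penk, Lum, Retn, Cidec, Adipoq, Cd3g and Cd3e did not pass, so they lost their call and gained none in the other direction. These turns follow from each gene's level in the line left out. Of 3629 values for 147 named genes in 25 settings, 3565 kept their side of the threshold, and those that stayed called kept direction. Another 46 lost their call, 4 gained one and these 14 turned. A change of sign in a gene called in neither fit was not counted as a turn. Leaving out 1 array at a time gave 6047 to 7231 calls against the mean of the lines, 8101 to 8574 against nephron, 6485 to 6888 against interstitial and 2996 to 3595 against endothelial arrays. It gave 6887 to 8057 in sham, 5288 to 6674 against the L10a background and 8964 to 9787 against wild-type background, with 810 to 1018 genes higher and 292 to 393 lower than each line.

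With the replicate number as a block and only the groups compared in the fit, limma called 7975 genes against the mean of the lines, 9751 against nephron, 7159 against interstitial, 4658 against endothelial arrays and 9723 in sham, with 1181 genes higher and 482 lower than each line. Without the block the same arrays gave 7895, 10572, 7046, 4986, 9547, 1241 and 526.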

Other observations

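A few genes outside the lists were also at least 2-fold higher in the myeloid line than in each other line. Fkbp5, a chaperone induced by glucocorticoid, was at 11.37, 11.08 and 11.14 in myeloid arrays, 9.85, 9.58 and 9.51 in nephron, 10.47, 9.05 and 8.66 in interstitial and 9.01, 9.12 and 10.94 in endothelial arrays. The third endothelial array stood apart from its group and came closest to the myeloid arrays. Its difference from the mean of the lines was 1.62 ± 0.32 by limma (adjusted p = 9.7e-05) without surgery and 0.93 in sham (adjusted p = 0.018). Slc2a3, the glucose carrier GLUT3, was at 9.26, 9.40 and 9.33 in myeloid, 7.99, 7.88 and 7.77 in endothelial, 7.35, 6.66 and 6.84 in interstitial and 6.34, 6.19 and 6.61 in nephron arrays, without overlap. Retnla, an effector of alternatively activated macrophages, was at 10.03, 9.99 and 10.14 in myeloid arrays and 4.88, 4.84 and 4.74 in nephron arrays. Within the other lines Retnla varied widely, from 5.08 to 8.10 in interstitial and from 5.49 to 9.46 in endothelial arrays. Ifi209, an interferon-inducible member of the p200 family, was at 11.34, 11.34 and 11.26 in myeloid, 10.07, 10.13 and 9.24 in endothelial, 7.30, 7.45 and 6.40 in interstitial and 5.21, 5.46 and 5.23 in nephron arrays. These genes were chosen after their values were seen.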
